A study of Mus musculus with 32 samples.

Results

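Enzymes that cross-link the extracellular matrix were followed in the lungs of young mice as a set of 10 genes: the 5 lysyl oxidases Lox, Loxl1, Loxl2, Loxl3 and Loxl4, the 3 lysyl hydroxylases Plod1, Plod2 and Plod3, and the transglutaminases Tgm1 and Tgm2. They were found by symbol among the 46165 gene records of each deposited file, of which 18853 had at least 1 exon read. All 10 had exon reads in each of the 32 libraries, and all 10 passed the filter on low counts in every fit.

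Lysyl oxidases are secreted copper enzymes that oxidise lysine side chains of collagen and tropoelastin, and the aldehydes formed then condense into cross-links. Lysyl hydroxylases act earlier, inside the cell, where they hydroxylate collagen lysines and so set which kind of cross-link can form and where sugars attach. Transglutaminases join glutamine to lysine side chains of many proteins: Tgm2 works in and around many cell types, while Tgm1 is best known for the cornified envelope of skin. In the growing lung, cross-linked elastin and collagen lie in the walls that divide airspaces into alveoli.

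RNA came from whole lungs of C57BL/6 pups, perfused through the heart, with 4 libraries for each of 8 groups, in a study of what control treatments do by themselves. On postnatal day 14 the groups were untreated pups, pups with daily saline at 25 µl per g on days 1 to 13, pups injected on days 1 and 3 with nuclease-free water at 10 µl per g, and pups given the locked nucleic acid inhibitor controls Scrambled 1 or Scrambled 2 in such water on the same days (10 mg per kg). On postnatal day 6 the groups were pups given 25 µl of saline, 25 µl of the oil Miglyol, or 0.4 mg of tamoxifen, an oestrogen receptor ligand, in 25 µl of Miglyol, on days 1 and 2. Injections went into the peritoneum, and untreated pups had none. Lungs of day 6 came from pups killed with pentobarbital and those of day 14 from pups killed with isoflurane, so age, agent and injection schedule cannot be told apart. Nothing in the labels ties a library to an animal of its own, so p-values measure the spread among the libraries and cannot separate animals from technical error.

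Libraries held 7918537 to 12443221 exon reads. Markers of lung epithelium summed to 15994 to 24217 CPM, the exon reads scaled to library size, over all libraries, and every gene of that list was read in every group. Water replicate 3 stood apart in the summed markers of skeletal muscle (371 CPM), adipose tissue (121 CPM), cartilage (110 CPM) and thymus (60.4 CPM). Intronic reads took 8.69% to 16.1% of gene reads, with a mean of 10.0% ± 1.04 (SD, n = 4) in daily saline and 14.1% ± 1.42 (SD, n = 4) in water.

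Levels of the 10 genes were compared with each other only as TPM, which are scaled to transcript length as well as library size. In the 20 libraries of day 14, Tgm2 stood at 225 ± 17.7 TPM (SD) and Loxl1 at 217 ± 20.4 TPM, and their ranges overlapped. Loxl2 followed with 135 ± 18.2 TPM and Lox with 120 ± 8.38 TPM, again with overlapping ranges. The hydroxylases lay at 72.1 ± 8.86 TPM for Plod2, 59.6 ± 2.52 TPM for Plod1 and 56.4 ± 3.39 TPM for Plod3, and all 3 ranges overlapped. Loxl3 had 23.7 ± 2.48 TPM. Loxl4 and Tgm1 were the scarce members, at 2.13 ± 0.357 and 2.02 ± 0.446 TPM, with 25 to 70 and 13 to 81 exon reads per library over all groups, so their fold changes carry the widest errors.

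How securely the reads belong to each gene differed. Reads counted as unique made up all exon reads of Loxl4, Plod1, Tgm1 and Tgm2, and at least 95.8% of those of Lox, Loxl1, Plod2 and Plod3 over all libraries. For Loxl3 the share was 86.7%. For Loxl2 it was 65.9%, from 58.0% to 74.2% by library. The rest are called shared reads here, and whether they fit another place or an overlapping record is not given. The Loxl2 locus (chromosome 14, 69608692 to 69695834, plus strand in the files' coordinates) is overlapped by the record Gm27177, and Loxl3 is overlapped by Htra2. Records also overlap Lox, Plod2 and Plod3, and none overlaps Loxl1, Loxl4, Plod1, Tgm1 or Tgm2. How the strand was used in counting is not given in the sources used here, so reads of such partners cannot be told apart from these genes.

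**Figure D1:**
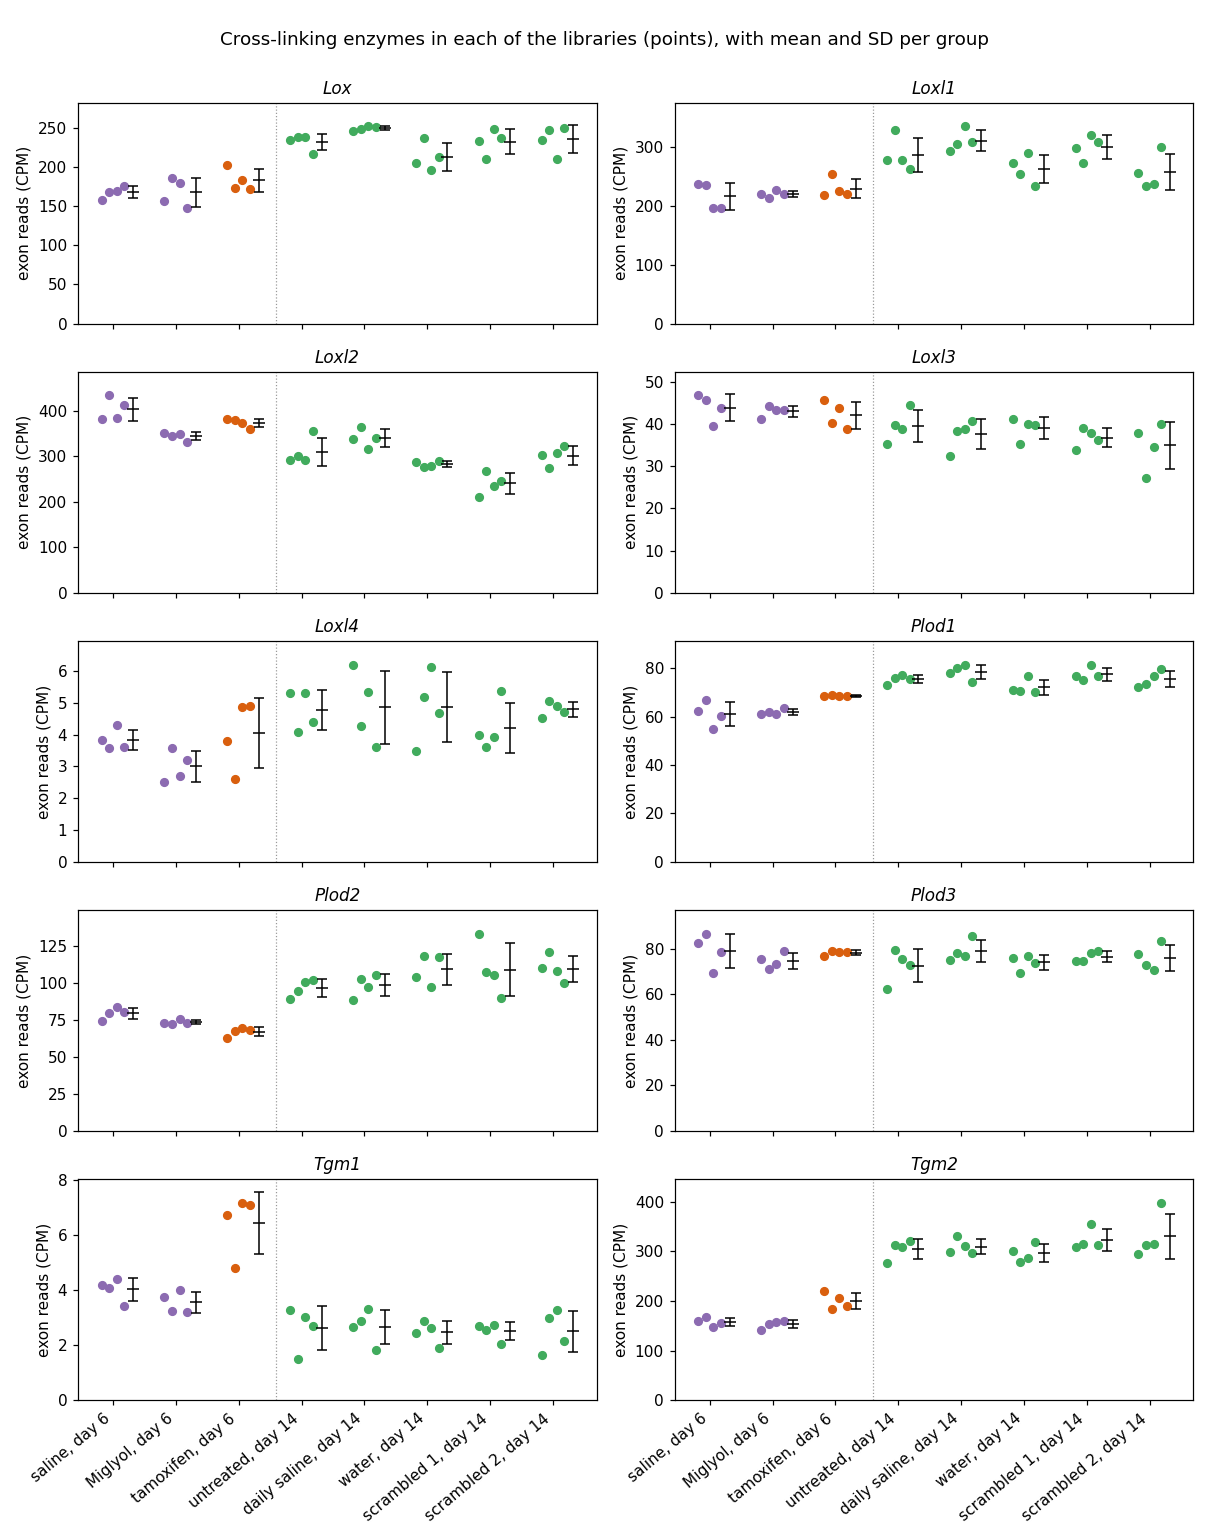
Exon reads in CPM (y axis, from 0) of the 10 enzymes in the 8 groups (x axis), 1 point per library, with the mean and SD of each group beside the points; day 6 groups lie left of the dotted line. Tgm2 rises from 141 to 220 CPM at day 6 to 276 to 398 CPM at day 14, and Tgm1 is highest in the tamoxifen group, at 4.81 to 7.18 CPM.

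Between day 6 and day 14, 9 of the 10 enzymes changed, 6 upwards and 3 downwards, against a background in which 61.4% of all 14406 genes tested changed, 30% upwards and 31.3% downwards. This comparison set the mean of the 5 day 14 groups against the mean of the 3 day 6 groups, in edgeR's quasi-likelihood test with Benjamini-Hochberg adjustment at an adjusted p under 0.05, which is the rule used for every call of a change here. The median log2 fold change was 0.30 over the 10 enzymes and -0.01 over all genes. Fewer cells of a type and less RNA per cell cannot be told apart in whole lung, here or in any comparison that follows.

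Among the lysyl oxidases, Lox, the founding member and a main oxidase of elastin and collagen, rose. Its lowest, median and highest levels were 148, 172 and 203 CPM at day 6 (12 libraries) and 195, 237 and 252 CPM at day 14 (20 libraries), so the ranges met only at their ends. The log2 fold change was 0.43 (SE 0.0366, adjusted p = 2.50e-12, edgeR), a 1.34-fold rise with a 95% interval of 1.28 to 1.42. Loxl1, the oxidase needed for elastic fibre upkeep, likewise rose, from 196, 220 and 254 CPM to 234, 284 and 335 CPM, by 0.35 on the log2 scale (SE 0.0420, adjusted p = 6.86e-09, edgeR).

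Loxl2, an oxidase that acts on basement membrane collagen, went the other way. At day 6 its lowest, median and highest levels were 331, 375 and 433 CPM, and at day 14 they were 211, 291 and 364 CPM. It fell by 0.35 on the log2 scale (SE 0.0331, adjusted p = 3.09e-11, edgeR). Both kinds of its reads fell: unique reads by 0.31 (SE 0.0401, adjusted p = 1.99e-08, edgeR) and shared reads by 0.42 (SE 0.0735, adjusted p = 3.24e-05, edgeR), also on the log2 scale.

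The remaining oxidases changed less securely. Loxl3 went from a median of 43.5 CPM to 38.5 CPM and fell by 0.20 on the log2 scale (SE 0.0451, adjusted p = 0.000323, edgeR), with ranges of 38.7 to 46.8 and 27.3 to 44.4 CPM that overlapped widely. Loxl4 rose by 0.39 (SE 0.103, adjusted p = 0.00146, edgeR), from a median of 3.61 to 4.69 CPM. When only untreated day 14 was set against saline day 6, a group pair without oil or drug, neither passed. Loxl3 stood at -0.15 (adjusted p = 0.193) and Loxl4 at 0.32 (adjusted p = 0.215) on the log2 scale in edgeR. Both kept their sign, but this pair has only 4 libraries per group and sets uninjected against injected pups.

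Among the hydroxylases, Plod2, which hydroxylates the telopeptides of collagen, rose. Its lowest, median and highest levels were 62.6, 73.0 and 83.7 CPM at day 6 and 88.9, 103 and 133 CPM at day 14, and no library of one age reached the other's range. The log2 fold change was 0.51 (SE 0.0426, adjusted p = 1.16e-12, edgeR). In untreated against saline alone it was 0.28 (adjusted p = 0.00697, edgeR), below the 0.30 of Plod1 there (adjusted p = 1.61e-05). Plod1, which hydroxylates lysines of the collagen helix, rose by 0.25 (SE 0.0268, adjusted p = 5.97e-10, edgeR), from 54.9 to 69.0 CPM at day 6 to 70.2 to 81.5 CPM at day 14, also without overlap. Plod3, which in addition attaches sugars to hydroxylysine, was the member that did not pass: its medians were 78.4 and 75.6 CPM, and the log2 fold change of -0.03 had a 95% interval of -0.10 to 0.04 (adjusted p = 0.413, edgeR).

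The transglutaminases moved in opposite directions. Tgm2 had lowest, median and highest levels of 141, 160 and 220 CPM at day 6 and 276, 312 and 398 CPM at day 14. The ages did not overlap, and the rise of 0.89 on the log2 scale (SE 0.0394, adjusted p = 4.47e-20, edgeR), or 1.85-fold (95% interval 1.75 to 1.96), was the greatest among the 10 enzymes. Tgm1 fell by 0.82 (SE 0.110, adjusted p = 6.12e-08, edgeR), from 3.21, 4.14 and 7.18 CPM to 1.504, 2.68 and 3.30 CPM, and the top of the day 14 range lay just inside the day 6 range. The day 6 mean includes the tamoxifen group, which is the highest of all groups, and untreated against saline alone gave -0.61 (adjusted p = 0.0274, edgeR).

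Markers of several cell types also differed between the ages. All 6 endothelium markers rose, and their sums, 2335 to 2698 CPM at day 6 and 2925 to 3690 CPM at day 14, did not overlap. All 4 adipose and all 3 thymus markers that could be tested rose, in sums of 1.15 to 5.50 and 3.27 to 121 CPM and of 24.4 to 32.2 and 28.6 to 60.4 CPM. Mesothelium markers fell in 3 of 5 and rose in 1, and of 9 fibroblast and myofibroblast markers 3 rose and 4 fell. Their part in the changes of the enzymes was not tested.

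**Figure D2:**
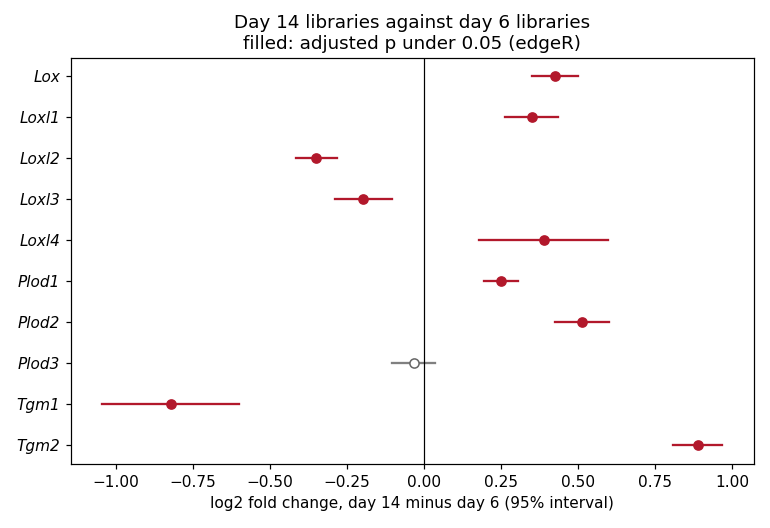
Log2 fold change of each enzyme (y axis) between day 14 and day 6 (x axis, day 14 minus day 6), as points with 95% intervals, filled where the adjusted p was under 0.05. Tgm2 lies farthest right at 0.89 and Tgm1 farthest left at -0.82, and Plod3 is the open point at -0.03.

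Since the oxidases moved in different directions, their makeup shifted while their sum moved little. The summed level of the oxidases was 454 ± 33.2 TPM (SD, n = 12) at day 6 and 498 ± 31.1 TPM (SD, n = 20) at day 14. The library ranges overlapped, and this difference was not tested. Loxl2 supplied 37.3% ± 1.99 of that sum at day 6 and 27.1% ± 2.93 at day 14, and the library ranges, 35.2% to 41.1% and 20.7% to 32.1%, did not overlap. Loxl1 went from 37.0% ± 2.21 to 43.5% ± 2.92 and Lox from 19.5% (17.4% to 22.0% by library) to 24.2% (21.1% to 28.3%). At day 6 Loxl1 and Loxl2 thus had like shares, and at day 14 Loxl1 led in the means of all 5 groups. The Loxl2 TPM include its shared reads, so its level beside Loxl1 rests in part on them. Shares from unique reads alone were not computed.

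Scrambled 1 had the lowest Loxl2 share, 22.7% ± 2.50 (SD, n = 4), and the highest Loxl1 share, 47.3% ± 1.77. Within the hydroxylases the sum went from 157 ± 9.99 to 188 ± 10.3 TPM, with Plod2 at 31.9% ± 2.66 and then 38.2% ± 2.96, and Plod3 at 36.4% ± 1.16 and then 30.0% ± 1.75. Of the 2 transglutaminases, Tgm2 held 97.1% ± 0.544 of the TPM at day 6 and 99.1% ± 0.212 at day 14.

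**Figure D3:**
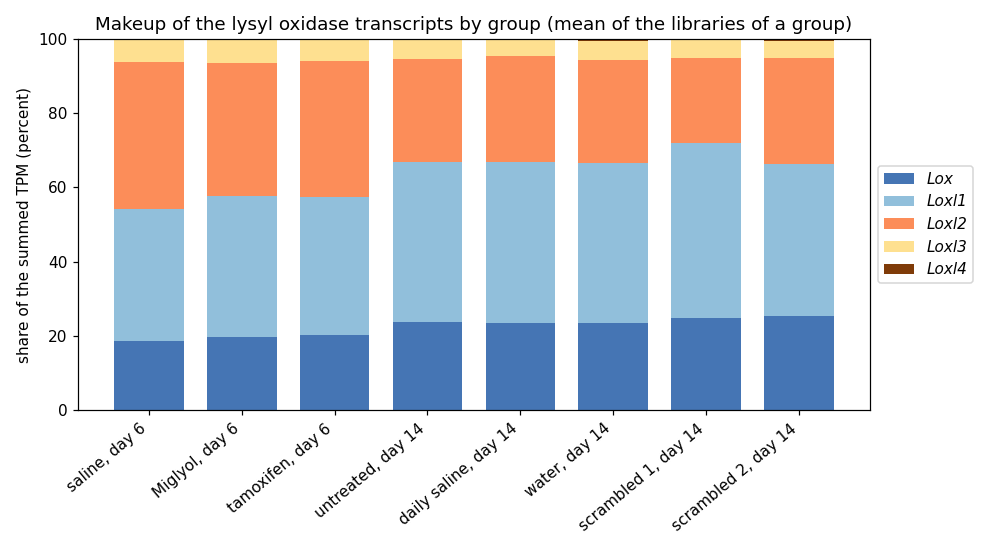
Share of each lysyl oxidase in the summed TPM of the 5 genes (y axis, percent, group means of 4 libraries) for the 8 groups (x axis), stacked from Lox at the bottom. Loxl2, counted with its shared reads, takes 35.7% to 39.6% in the day 6 groups and 22.7% to 28.8% in the day 14 groups.

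Of 76 tested genes in 6 lists around the cross-linking step, 32 rose and 24 fell between the ages. Of all genes tested, 30% rose and 31.3% fell. Of 19 elastic fibre and collagen fibril genes, 8 rose and 8 fell. Eln, which encodes tropoelastin, the substrate of Lox and Loxl1, rose from 3745 ± 398 to 10287 ± 1176 CPM (log2 fold change 1.46, SE 0.0533, adjusted p = 2.40e-22, edgeR), and the fibrillin gene Fbn2 fell from 78.5 ± 17.3 to 29.3 ± 3.81 CPM. Of 12 collagen chain genes, 7 rose and 1 fell, with Col3a1 at 3541 ± 352 and then 5352 ± 377 CPM. Of 22 collagen maturation genes, 8 rose and 8 fell, among them Pcolce2, an enhancer of procollagen C-proteinase, which rose by 1.53 on the log2 scale (SE 0.0408, adjusted p = 1.19e-25, edgeR).

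Other lists of the pathway were smaller. In the list of 5 copper handling genes none rose and 3 fell: the metallothioneins Mt1 and Mt2 and the copper pump gene Atp7a, which loads lysyl oxidases. Atp7a fell by only 0.12 on the log2 scale (adjusted p = 0.0248, edgeR). Of 14 genes of the TGF-beta and hypoxia pathways, both of which can induce lysyl oxidases, 8 rose, Tgfb3 and Epas1 among them, and 2 fell, led by the oxygen sensor gene Egln3 with a fall of 2.07 on the log2 scale (SE 0.0672, adjusted p = 1.15e-23, edgeR). In the list of 9 other transglutaminase and peroxidase genes 4 could be tested. Pxdn rose by 0.09 (adjusted p = 0.0113, edgeR), and F13a1 and the gene of erythrocyte protein 4.2 fell. Only 26.7% of the F13a1 exon reads were unique. In untreated against saline alone Pxdn had the opposite sign (-0.12, adjusted p = 0.0976, edgeR), and Mt1 and F13a1 did not pass. Atp7a did not pass with all gene reads or with intronic share as a covariate. Median log2 fold changes were -0.01, 0.15, 0.01, -0.12, 0.12 and -0.27 for these lists in the order given, beside -0.01 over all genes.

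Tamoxifen was the treatment with the clearest change in these enzymes. Against its vehicle Miglyol, 2 of the 10 rose and none fell, where 5.68% of all 14107 genes tested changed and 3.71% rose. Both were transglutaminases. Tgm1 stood at 3.76, 3.25, 4.02 and 3.21 CPM in the 4 Miglyol libraries and at 6.73, 4.81, 7.18 and 7.10 CPM in the 4 tamoxifen libraries. Every tamoxifen library lay above every Miglyol library, and replicate 2 was the lowest of them. The log2 fold change was 0.86 (SE 0.166, adjusted p = 0.00494, edgeR), or 1.81-fold. The counts behind it are low, 30 to 48 exon reads per Miglyol library and 50 to 81 per tamoxifen library, all unique to Tgm1.

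Tgm2 had 141, 154, 157 and 160 CPM in the Miglyol libraries and 220, 183, 207 and 189 CPM in the tamoxifen libraries. Again the groups did not overlap, and the log2 fold change was 0.39 (SE 0.0662, adjusted p = 0.00225, edgeR), or 1.31-fold. Even so, every tamoxifen library remained below the lowest day 14 library, at 276 CPM. Both transglutaminases passed the threshold in each of 10 settings and in all 8 fits that left out 1 library.

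Promoter sequences of RefSeq (GRCm38.p6) were at hand for 4 of the 10 enzymes. Those of Tgm1, Plod1 and Loxl4, the windows free of exons annotated in that source, are printed. Tgm1 rose with tamoxifen and fell with age, and the other 2 rose with age. The window of Plod3 and another one of Tgm1 touch annotated exons and are not shown. Each is the 240 bases from 250 to 11 bases before an annotated start, on the minus strand, read 5′ to 3′: Tgm1 at chr14:55713503-55713742, Plod1 at chr4:147936787-147937026 and Loxl4 at chr19:42612817-42613056. The Tgm1 window lies inside the gene record, which runs from 55700009 to 55713921, upstream of an internal start. The end of the Loxl4 window nearest its start lies inside the Loxl4 record, which runs from 42592279 to 42612906 in the files' coordinates. That record has another span in GRCm38.p6. Capitals mark matches, on either strand, to an oestrogen response core (AGGTCA or TGACCT), an AP-1 site (TGANTCA), a hypoxia response core (ACGTG or CACGT), a GC box (GGGCGG or CCGCCC) and a TATA box (TATAAA or TTTATA), of which no 2 overlap here.
Tgm1: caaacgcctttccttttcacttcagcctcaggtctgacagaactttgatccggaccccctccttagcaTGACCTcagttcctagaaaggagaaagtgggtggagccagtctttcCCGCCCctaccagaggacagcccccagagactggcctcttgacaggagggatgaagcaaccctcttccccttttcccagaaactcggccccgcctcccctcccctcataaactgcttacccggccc
Plod1: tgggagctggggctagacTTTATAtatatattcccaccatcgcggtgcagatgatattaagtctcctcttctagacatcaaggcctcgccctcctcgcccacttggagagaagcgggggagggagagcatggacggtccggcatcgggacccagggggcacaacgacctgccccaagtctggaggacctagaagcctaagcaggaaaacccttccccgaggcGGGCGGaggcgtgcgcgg
Loxl4: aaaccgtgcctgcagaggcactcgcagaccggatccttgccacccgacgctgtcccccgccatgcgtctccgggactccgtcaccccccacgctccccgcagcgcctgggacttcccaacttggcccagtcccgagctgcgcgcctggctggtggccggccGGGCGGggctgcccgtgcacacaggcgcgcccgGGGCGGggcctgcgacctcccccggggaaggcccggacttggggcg
The Tgm1 window held 1 oestrogen response core, which begins 182 bases before the start, and 1 GC box, at 136 bases. Such a core occurs in 13.5% of 32851 promoter windows of this length, while the full oestrogen response element, AGGTCA and TGACCT with 3 bases between them, occurs in 0.0213% and in none of these 3. Plod1 held a GC box at 28 bases and a TATA box match at 232 bases before its start. Loxl4 held GC boxes at 89 and 56 bases, both in the stretch that overlaps its gene record. GC boxes occur in 31.3% of windows and TATA box matches in 12.1%. GC content was 57.5% for Tgm1, 60.4% for Plod1 and 75.8% for Loxl4, beside a median of 52.1%. These matches describe letters only, and no binding was measured.

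None of the other 8 enzymes passed in tamoxifen against Miglyol. The closest was Plod1, at 61.2, 61.9, 61.0 and 63.4 CPM in Miglyol and 68.6, 69.0, 68.4 and 68.4 CPM in tamoxifen, with a log2 fold change of 0.15 (95% interval 0.02 to 0.28, adjusted p = 0.172, edgeR). Its groups did not overlap, but the difference was small. Loxl4 stood at 3.00 ± 0.485 and 4.04 ± 1.09 CPM (SD, n = 4), with an interval of 0.01 to 0.88 on the log2 scale (adjusted p = 0.240, edgeR). Lox, Loxl1, Loxl2, Loxl3, Plod2 and Plod3 had log2 fold changes between -0.13 and 0.13, with adjusted p from 0.234 to 0.878.

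Against saline, with which it shares no vehicle, tamoxifen gave 3 changes among the 10 enzymes, where 23.7% of all genes changed, 11.3% upwards and 12.3% downwards. This comparison and the one against Miglyol share the tamoxifen libraries. Tgm2 rose by 0.34 (SE 0.0663, adjusted p = 0.00171) and Tgm1 by 0.68 (SE 0.167, adjusted p = 0.00744) on the log2 scale in edgeR. Plod2 had 74.6, 80.0, 83.7 and 80.3 CPM with saline and 62.6, 67.9, 69.8 and 68.0 CPM with tamoxifen, without overlap. It fell by 0.25 (SE 0.0587, adjusted p = 0.00620, edgeR). With Miglyol alone Plod2 lay between the other 2 groups, at 73.5 ± 1.41 CPM, and neither step passed by itself. Plod1 did not pass (log2 fold change 0.16, adjusted p = 0.0631, edgeR), but did so in edgeR without saline replicate 2 (adjusted p = 0.0332).

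Markers of other cells moved beside these values. The summed level of 8 leukocyte markers was 229 to 258 CPM in Miglyol and 284 to 591 CPM in tamoxifen, and 3 of the 8 rose and none fell against Miglyol. The 10 squamous epithelium markers, of which Dsg3 had no reads with tamoxifen, summed to 10.7 to 15.2 CPM in Miglyol and to 17.7 to 20.1 CPM in tamoxifen. Lung epithelium markers lay at 18207 to 22252 and 21443 to 24173 CPM, with 4 of 9 higher, and mesothelium markers at 200 to 259 and 270 to 290 CPM, with 1 of 5 higher. The part of these cells in the rise of Tgm1 and Tgm2 was not tested. Against saline, 6 of the 8 leukocyte markers and 6 of the 9 lung epithelium markers rose, and 3 of 6 endothelium markers fell and 2 rose. Their part in the fall of Plod2 was likewise not tested.

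Around the enzymes, tamoxifen against Miglyol changed 8 of the 76 tested genes of the 6 pathway lists, beside 5.68% of all genes, 6 upwards and 2 downwards. In the list of 19 elastic fibre and fibril genes 1 rose and 2 fell: the fibronectin gene Fn1 by 0.35 (adjusted p = 0.0485) upwards, Fbn2 by -0.46 (adjusted p = 0.00923) and the elastin-binding Fbln5 by -0.29 (adjusted p = 0.0129), on the log2 scale in edgeR. Among 12 collagen chains Col6a1 and Col6a2 rose, by 0.29 and 0.25. In collagen maturation the prolyl hydroxylase gene P4ha2 (log2 fold change 0.43) and the procollagen N-proteinase gene Adamts2 (0.24) rose, out of 22. Tgfbr2 rose among the 14 TGF-beta and hypoxia genes, and no copper gene passed. Of these 8 calls only that of Fbn2 held under every alternative run. Fn1 and Tgfbr2 did not pass in 4 of 10 settings and in 6 of 8 fits that left out 1 library. Against saline 2 of the 76 rose, P4ha2 and Mt1, and 19 fell, beside 11.3% and 12.3% of all genes. The falls were 7 of 19 elastic fibre genes, 4 of 12 collagen chains, 2 of 22 collagen maturation genes, 4 of 14 TGF-beta and hypoxia genes, 1 of 5 copper genes and Pxdn.

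Miglyol against saline changed 1 of the 10 enzymes, Loxl2, where 10.6% of all genes changed and 7.29% fell. Loxl2 had 382, 433, 383 and 411 CPM with saline and 350, 344, 349 and 331 CPM with Miglyol. The groups did not overlap, and Loxl2 fell by 0.23 on the log2 scale (SE 0.0568, adjusted p = 0.0192, edgeR). The difference lay in the shared reads. Those were at 159, 182, 138 and 164 CPM with saline and at 111, 121, 115 and 85.8 CPM with Miglyol, a fall of 0.67 on the log2 scale (SE 0.140, adjusted p = 0.0176, edgeR).

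Unique Loxl2 reads stood at 223, 251, 245 and 247 CPM with saline and 240, 223, 234 and 245 CPM with Miglyol. These overlapped almost fully, and the log2 fold change of -0.03 had a 95% interval of -0.18 to 0.12 (adjusted p = 0.785, edgeR). Whether transcripts of Loxl2, of the overlapping Gm27177 or of another locus were lower therefore cannot be told apart from these counts. The call was also lost with intronic share as a covariate (adjusted p = 0.134) and with the replicate number as a block (0.0577), and without saline replicate 2 (adjusted p = 0.0619), saline replicate 4 (0.0672) or Miglyol replicate 4 (0.0664). Over all reads of the libraries, the unique share was 89.4% to 90.1% with saline and 87.5% to 89.0% with Miglyol. Intronic share also differed, at 13.9% to 16.1% with saline and 11.4% to 14.3% with Miglyol. A fit with that covariate therefore cannot fully separate it from treatment. Summed markers of other cells moved as well: endothelium stood at 2547 to 2698 CPM with saline and 2345 to 2448 CPM with Miglyol, lung epithelium at 15994 to 17027 and 18207 to 22252 CPM, and leukocytes at 188 to 216 and 229 to 258 CPM. Of 6 endothelium markers 1 fell, of 9 lung epithelium markers 2 rose, of 8 leukocyte markers none passed, and of 9 fibroblast and myofibroblast markers 3 fell. Their part in the fall of Loxl2 was not tested.

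**Figure D4:**
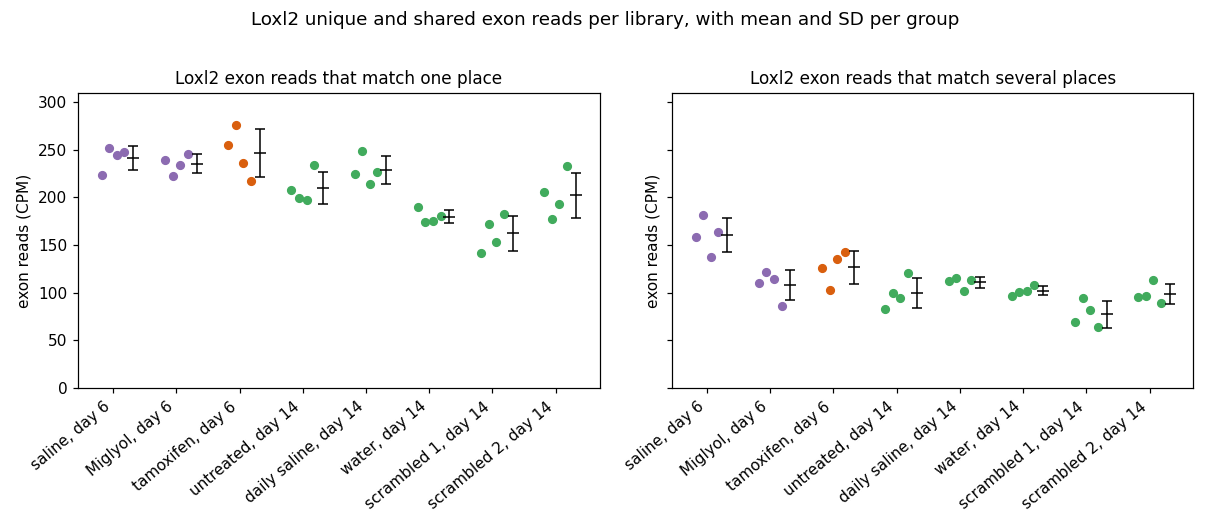
Loxl2 exon reads counted as unique (left panel, titled 1 place) and as shared (right panel, titled several places), in CPM (y axis, from 0). The 8 groups lie on the x axis, with 1 point per library and the mean and SD of each group. Whether shared reads fit another place or an overlapping record is not given. In saline and Miglyol of day 6 the unique reads overlap, at 223 to 251 and 223 to 245 CPM, while the shared reads lie apart, at 138 to 182 and 85.8 to 121 CPM.

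The other 9 enzymes did not pass in Miglyol against saline, with log2 fold changes from -0.36 (Loxl4, 95% interval -0.81 to 0.08) to 0.02 (Loxl1, -0.13 to 0.17). Of 76 tested genes of the 6 pathway lists 2 rose and 10 fell, and of all 1498 genes called 1028 fell. Fn1 fell by 0.48 and Fbn1 by 0.40 on the log2 scale, while Mfap5 rose by 0.41, out of 19 elastic fibre genes. Col6a3 and Col4a1 fell among 12 collagen chains, Atp7a among 5 copper genes, and Epas1, Smad3 and Tgfbr2 among 14 TGF-beta and hypoxia genes. In collagen maturation 1 of 22 rose, P3h4, and 1 fell, Adamts3, and Pxdn fell by 0.27 (adjusted p = 0.0151, edgeR). None of these 12 passed with intronic share as a covariate, a fit that called only 2 genes in all and cannot fully separate that share from treatment.

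Among the day 14 groups, daily saline against water gave 2 changes in the 10 enzymes, both upwards, where 2.74% of all 14179 genes tested changed and 1.04% rose. Loxl2 had 286, 275, 278 and 289 CPM in water and 337, 364, 316 and 340 CPM in daily saline, with no overlap. It rose by 0.27 on the log2 scale (SE 0.0700, adjusted p = 0.0395, edgeR). Here the unique reads passed, with 0.35 (SE 0.0789, 95% interval 0.19 to 0.51, adjusted p = 0.0196, edgeR). The shared reads did not pass, with 0.08 (95% interval -0.18 to 0.35, adjusted p = 0.851, edgeR). The intervals overlapped, and a difference between unique and shared reads was not tested.

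Lox had 205, 237, 195 and 213 CPM in water and 246, 248, 252 and 250 CPM in daily saline. All daily saline libraries were above all water libraries, and they varied little. The rise of 0.23 on the log2 scale (SE 0.0636, adjusted p = 0.0497, edgeR) lay at the edge of the threshold. Loxl1 moved by a like amount, 0.24 (SE 0.0808), and did not pass (adjusted p = 0.116, edgeR), with 273, 254, 290 and 234 CPM in water and 293, 306, 335 and 310 CPM in daily saline, which did not overlap.

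Both calls were weak. Of the 8 fits that left out 1 library, Loxl2 passed only in the one without daily saline replicate 3, with adjusted p from 0.0498 to 0.152 over the 8, and Lox only in the one without water replicate 2, with 0.0387 to 0.129. Without water replicate 3, the library high in muscle markers, Loxl2 had an adjusted p of 0.0728 and Lox of 0.129. The groups also differed in intronic share, given above, and with that share as a covariate the values were 0.41 (adjusted p = 0.0818) for Loxl2 and 0.24 (adjusted p = 0.291) for Lox in edgeR. Xist was above 100 CPM in 2 daily saline libraries and in no water library, and with it as a covariate Loxl2 had an adjusted p of 0.0976 and Lox of 0.0394.

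For the other 7 enzymes the log2 differences between daily saline and water ran from -0.15 (Plod2) to 0.12 (Plod1). In the lists around them, Fkbp14 and Adamts2 rose among 22 collagen maturation genes, Tgfb3 and the hypoxia-responsive Adm rose and Vegfa fell among 14 TGF-beta and hypoxia genes, and no elastic fibre, collagen or copper gene passed. Fkbp14 and Adamts2 did not pass in any of the 8 fits that left out 1 library, and none of the 5 passed with intronic share as a covariate. Tgfb3, a ligand that induces lysyl oxidases in culture, went from 150 ± 9.67 to 187 ± 3.15 CPM (log2 fold change 0.31, SE 0.0556, adjusted p = 0.00668, edgeR). Of 9 fibroblast and myofibroblast markers 1 rose, and their sums were 2503 to 2709 CPM in water and 2792 to 3052 CPM in daily saline. Endothelium sums were 2925 to 3289 and 3389 to 3645 CPM, leukocyte sums 263 to 311 and 198 to 246 CPM, and squamous epithelium sums 12.9 to 16.8 and 10.4 to 12.7 CPM, with no marker of these 3 lists past the threshold. The part of these cells in the rise of Lox and Loxl2 was not tested.

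Against untreated pups neither schedule changed any of the 10 enzymes in edgeR. For daily saline, 0.233% of all genes changed, and the enzymes lay between -0.08 (Loxl3) and 0.13 (Loxl2) on the log2 scale. For water, 0.0494% changed, and the enzymes lay between -0.13 (Loxl2) and 0.18 (Plod2). None of the 10 had an unadjusted p under 0.05 in either comparison, where 9.24% and 8.09% of all genes had one, and DESeq2 likewise called none. Untreated pups were in between for Lox, at 235, 238, 238 and 217 CPM, and for Loxl2, at 291, 300, 291 and 354 CPM. The Lox ranges of daily saline and untreated did not overlap, nor did the Loxl2 ranges of water and untreated. Every other pair of ranges in these comparisons with untreated pups overlapped. These comparisons share the untreated libraries with each other and 4 libraries each with daily saline against water.

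The scrambled oligonucleotides were each set against water, their solvent, whose libraries the pair share. With Scrambled 1 none of the 10 enzymes changed in edgeR, where 0.12% of all genes did, and 2 had an unadjusted p under 0.05, as had 11% of all genes. With Scrambled 2 none changed, where 0% of all genes did (DESeq2 called 5). Again 2 of the 10 had an unadjusted p under 0.05, as had 755 or 5.32% of all genes. DESeq2 called none of the 10 in either. Loxl2 stood at 211, 267, 235 and 246 CPM with Scrambled 1, below the 275 to 289 CPM of water, with a log2 fold change of -0.23 (95% interval -0.38 to -0.09, adjusted p = 0.193, edgeR). With Scrambled 2 it stood at 302, 273, 307 and 322 CPM, which overlapped water, with 0.09 (interval -0.05 to 0.24, adjusted p = 0.965, edgeR).

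Set against each other, the 2 oligonucleotides differed in 1 of the 10 enzymes, where 0.205% of all genes differed and 0.0705% were lower with Scrambled 1. Loxl2 was lower with Scrambled 1, by -0.33 on the log2 scale (SE 0.0705, adjusted p = 0.0471, edgeR), and no library of one group reached the other's range. The difference was of like size in unique reads, -0.31 (adjusted p = 0.131), and shared reads, -0.38 (adjusted p = 0.359), though neither passed alone in edgeR. It passed in 2 of the 8 fits that left out 1 library, those without Scrambled 1 replicate 2 (adjusted p = 0.0211) or Scrambled 2 replicate 4 (0.0441), and the range over the 8 was 0.0211 to 0.231. Loxl1 was at 300 ± 20.4 CPM with Scrambled 1 and 257 ± 30.8 CPM with Scrambled 2, a difference of 0.22 on the log2 scale (adjusted p = 0.312, edgeR). Without Scrambled 2 replicate 4 it passed as well (adjusted p = 0.0422). Fibroblast and myofibroblast markers summed to 2485 to 2682 CPM with Scrambled 1 and 2689 to 2996 CPM with Scrambled 2, with 1 of 9 lower with Scrambled 1, and their part in the difference of Loxl2 was not tested. Of 76 tested genes of the 6 pathway lists edgeR called none in the comparisons of the oligonucleotides, and DESeq2 called 1, with Scrambled 1 against water. Against water, 14 of the 76 with Scrambled 1 and 9 with Scrambled 2 had an unadjusted p under 0.05 in edgeR, beside 11% and 5.32% of all genes. Between the oligonucleotides 9 had one, and the share over all genes is not given here.

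**Figure D5:**
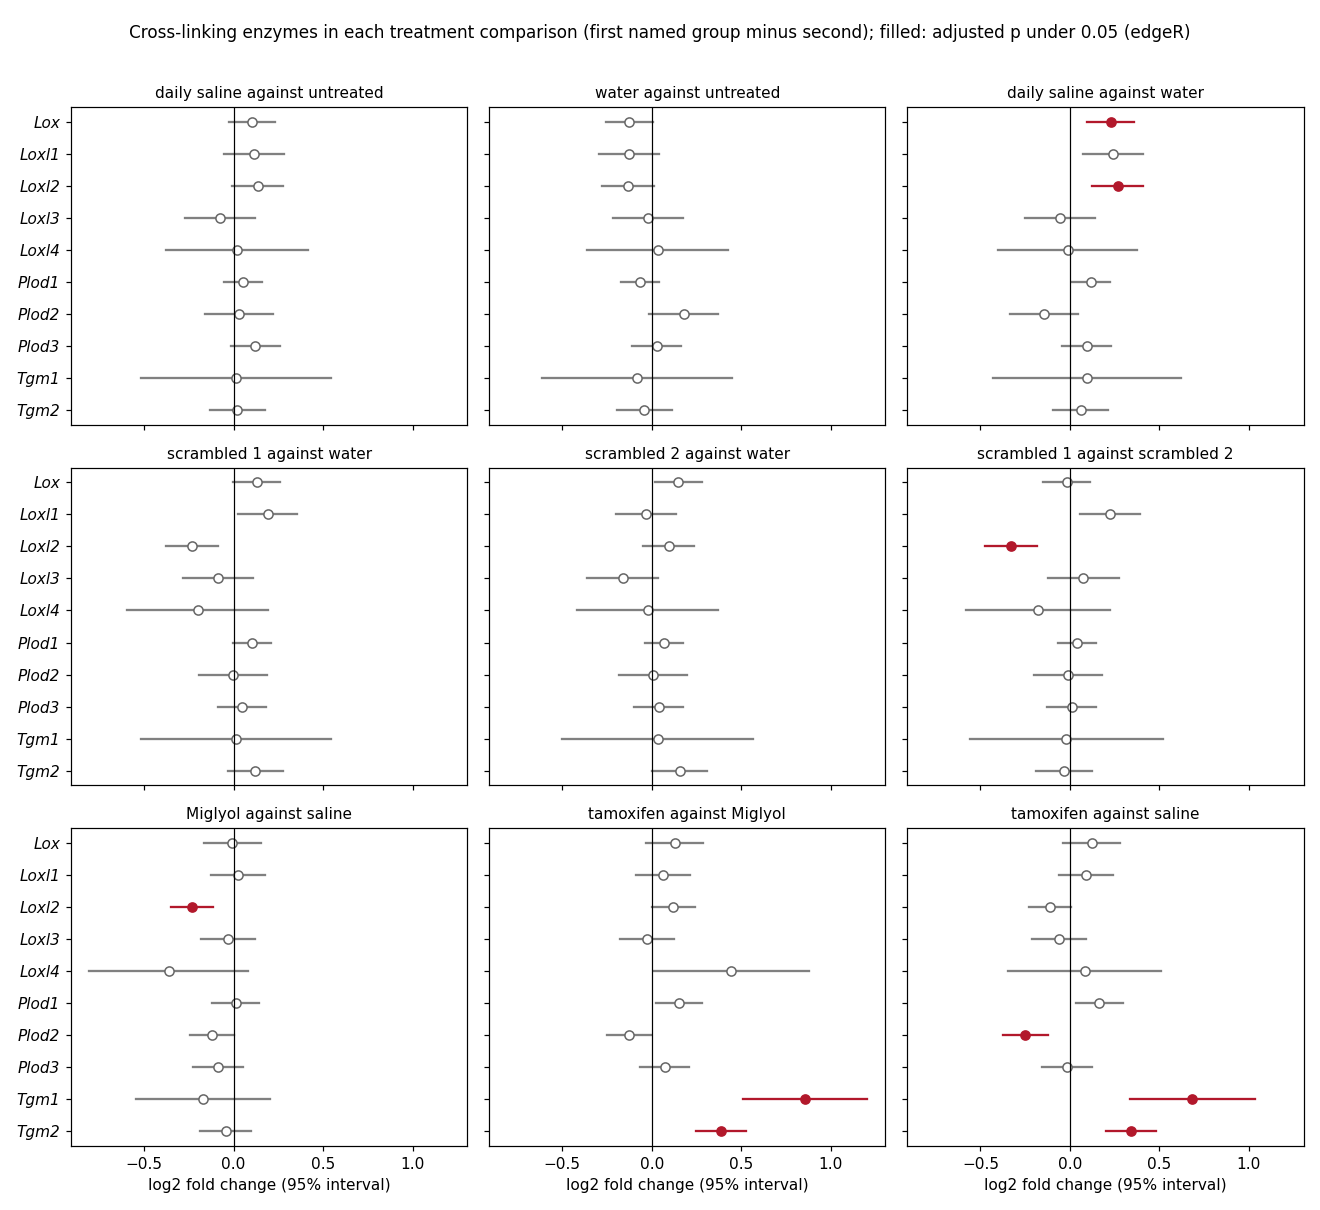
Log2 fold change (x axis, first named group minus the second) of the 10 enzymes (y axis) in 9 treatment comparisons, as points with 95% intervals, filled where the adjusted p was under 0.05. Filled points are Lox and Loxl2 in daily saline against water, Loxl2 in Scrambled 1 against Scrambled 2 and in Miglyol against saline, Tgm1 and Tgm2 in both tamoxifen comparisons, and Plod2 in tamoxifen against saline.

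Within groups the enzymes did not vary as one. After the mean of each group was subtracted from log2 CPM, the Pearson correlation over 32 libraries was highest among the 45 pairs for Loxl1 and Plod3 (0.62), Loxl1 and Plod1 (0.60) and Loxl2 and Loxl3 (0.60). It was lowest for Plod3 and Tgm1 (-0.56). These libraries share depth and quality effects, so the values are a description.

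Among 13437 other genes with a mean of at least 1 CPM, those most alike by this measure were often genes of the matrix. Loxl2 was nearest to Egflam (0.78), which encodes a basement membrane protein, and to the tenascin gene Tnc (0.75). Loxl3 was nearest to Bmp1 (0.76), the procollagen C-proteinase that also activates lysyl oxidases, Loxl4 to the collagen gene Col11a1 (0.69), and Plod3 to Smarcb1 (0.84), the collagen-binding Sparc (0.77) and the matrix metalloproteinase gene Mmp11 (0.77). Others were nearest to genes of other roles: Lox to Rnmt (0.76), Loxl1 to Map2k2 (0.87), Gpaa1 (0.86) and Jund (0.86), Plod1 to Dpp3 (0.76), Plod2 to Sema3e (0.70), Tgm1 to Arhgap19 (0.69) and Tgm2 to the adhesion genes Pvrl1 (0.74) and Jup (0.74).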

How the data were processed

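Counts of exon, intron, gene and junction reads per gene record, as total and as unique reads, and TPM values were made and deposited by the authors, with 1 file for each of the 32 libraries. Libraries were prepared with a stranded mRNA kit, per the labels' protocols, and bcl2fastq 2.0 is the tool that the submitters' processing notes name. Which aligner, genome build and strand setting were used is not given in the sources used here. By gene ID 42973 records matched the RefSeq table (GRCm38.p6), and 97.5% of these start within 5 kb of their place there.

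From the deposited total exon counts, each age was fitted by itself (20 libraries of day 14, 12 of day 6) with edgeR 4.0.16 in R 4.3.3, using filterByExpr, TMM scaling and robust quasi-likelihood F tests. Day 14 against day 6 used all 32 libraries. Benjamini-Hochberg adjustment ran over all genes tested. SE was taken as the size of the log2 fold change over the root of F, and intervals are 95% intervals of the model. CPM are TMM-scaled over all 32 libraries, and shared reads are total minus unique reads. TPM, as deposited and without TMM scaling, served for levels between genes and for the sums and shares of each enzyme family. Groups came from the labels. No 2 libraries of a group agreed within sampling noise (chi-square per gene of at least 2.38).

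All 10 members were named throughout. Of 6 pathway lists, counts are given, with up to 4 called genes of smallest p where a member was called, and the 3 genes most alike each member were sought by within-group correlation, of which some are named. Markers of 10 cell types or tissues were summed. The members and lists were chosen with earlier results of these data known. Alternatives were DESeq2 1.42.0, RLE scaling, no filter, unique reads, all gene reads, Xist or intronic share as covariate, only the 8 libraries compared, all 32 in 1 fit, a replicate block, untreated against saline for age, and each library left out. The fit of shared Loxl2 reads was added after results were seen. The edgeR step was tested on simulated data.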

Additional observations from a re-analysis of the deposited data

Results flagged for a closer look

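In each of 80 sets of 4 libraries (10 enzymes in 8 groups) the highest and the lowest library were set against the others, and 4 stood apart by Dixon's criterion, where chance marks about 1 group in 20. Of these, 2 lay in untreated replicate 4: Lox was at 217 CPM there and at 235 to 238 CPM in the other 3 untreated libraries, and Loxl2 was at 354 CPM there and at 291 to 300 CPM in the others. Plod1 was at 76.8 CPM in water replicate 3, the library with the high skeletal muscle markers, and at 70.2 to 71.1 CPM in the other water libraries. Tgm2 was at 355 CPM in Scrambled 1 replicate 3 and at 308 to 315 CPM in the others.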

How the results depend on the processing

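The 4 tamoxifen calls of Tgm1 and Tgm2, the call of Plod2 against saline, and 7 of the 9 age calls passed under every alternative run; Loxl3 and Loxl4 did not pass when age was untreated against saline only, which left 7 members. Members called in daily saline against water were 2, and 1 with all 32 libraries in 1 fit, with no filter, with Xist as covariate or with the replicate block, 0 with intronic share as covariate, and 0 to 1 with a library left out. In Scrambled 1 against Scrambled 2 the 1 call became 0 with unique reads, all gene reads, the 8 libraries alone or the replicate block, and 0 to 2 with a library left out. In Miglyol against saline the 1 call became 0 with unique reads, intronic share or the replicate block, and 0 to 1 with a library left out. Loxl1 in daily saline against water passed with all gene reads (adjusted p = 0.0363, edgeR), and Plod1 in tamoxifen against saline passed with all 32 libraries, all gene reads or Xist. The cause was not tested. A sign change counted only where a value passed: Pxdn at day 14 against day 6 stood at -0.12 (adjusted p = 0.0976, edgeR) in untreated against saline only. In 36 comparisons of same-numbered libraries, their deviations correlated from -0.45 to 0.50, and 12 were above 0.1. Whether same-numbered libraries share a litter or a batch is not given in the labels and was not tested. With the replicate block Lox in daily saline against water (adjusted p = 0.0621), Loxl2 between the oligonucleotides (0.0505) and Loxl2 in Miglyol against saline (0.0577) did not pass, and no other member's call changed.

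Counts over all genes moved more. Intronic share as covariate gave 13 in place of 389 for daily saline against water, 2 in place of 1498 for Miglyol against saline, 1190 in place of 3343 for tamoxifen against saline, 1268 in place of 801 for tamoxifen against Miglyol, and 0 in place of 33 for daily saline against untreated. DESeq2 gave 108 in place of 33 for daily saline against untreated and 98 in place of 17 for Scrambled 1 against water, and the replicate block gave 461 for Miglyol against saline. With 1 library left out, daily saline against water gave 28 to 276, Scrambled 1 against Scrambled 2 gave 0 to 205 in place of 29, Miglyol against saline 308 to 1729, daily saline against untreated 1 to 9, water against untreated 1 to 9 in place of 7, Scrambled 1 against water 3 to 39, tamoxifen against Miglyol 429 to 1188 and tamoxifen against saline 1991 to 3924. Of the pathway genes examined, all 12 calls of Miglyol against saline, all 5 of daily saline against water, 7 of 8 of tamoxifen against Miglyol, 10 of 18 of tamoxifen against saline and 5 of 22 for age were lost under at least 1 alternative. With few reads, Loxl4 and Tgm1 had SEs up to 0.261 on the log2 scale within an age, so small changes of these 2 were not detectable at this depth.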
